A study of Mus musculus with 114 samples.

Results

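The genes described here are those of fat breakdown in the adipocyte: the lipases Pnpla2, Lipe, Mgll and Pnpla3, the ATGL activator Abhd5, the ATGL inhibitor G0s2 and the glycerol channel Aqp7. They were taken by gene symbol and not by a rule on measured values, although earlier results of these data were known. They make up 7 of the 29132 genes in the expression table, of which 10343, these 7 included, were abundant enough to be tested. RNA was sequenced from the adipocyte fraction of perigonadal white adipose tissue (PGWAT), recovered as the floating layer once the pad had been digested with collagenase, of 38 male C57BL/6J mice, for which no genetic modification is described. The mice received chow diet (CD, a purified low fat diet) or high fat diet (HFD, most of its energy from fat) starting when they were 6 weeks old, stayed on it during 8, 20 or 34 weeks, and were fasted for 6 hours before harvest. Each group held 6 mice, except for 8 in the CD group at 34 weeks. The methods name 2 low fat diets without saying which group received which. Floating cells are enriched adipocytes rather than a pure population, and mice of different diet durations also differed in age, so that duration, age and any difference in handling between the time points cannot be told apart.

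Lipolysis releases stored triglyceride one fatty acid at a time. ATGL, the product of Pnpla2, takes the first fatty acid on the droplet surface, hormone-sensitive lipase (Lipe) hydrolyses the diglyceride that is left, and monoglyceride lipase (Mgll) frees the last fatty acid from glycerol. ATGL is turned on by its coactivator CGI-58 (Abhd5), which perilipin holds back in the resting cell, and is turned off by the small protein G0S2. Glycerol leaves the cell through aquaglyceroporin 7 (Aqp7). Adiponutrin (Pnpla3) is a close relative of ATGL that rises with feeding in liver and fat and competes for CGI-58. In obese visceral fat this pathway is known for high basal release of fatty acids and a blunted response to catecholamines.

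The sequences upstream of 3 of the genes are shown because these genes had the most abundant transcript (Pnpla2), the widest range between mice (G0s2) and the clearest response to diet (Aqp7). They are from RefSeq on GRCm38.p6, read 5′ to 3′ on the strand of the gene, end at or before the annotated start and leave out bases in any annotated exon; capitals mark each CG dinucleotide. Pnpla2 lies on the plus strand at chr7:141455188-141460743, and its 250 bases at chr7:141454938-141455187 hold 12 CG. G0s2 lies on the minus strand at chr1:193272160-193273188, and the 120 bases shown, chr1:193273218-193273337, hold 5 CG. Aqp7 lies on the minus strand at chr4:41033074-41048237, and its 149 bases at chr4:41048238-41048386 hold 0 CG.
Pnpla2: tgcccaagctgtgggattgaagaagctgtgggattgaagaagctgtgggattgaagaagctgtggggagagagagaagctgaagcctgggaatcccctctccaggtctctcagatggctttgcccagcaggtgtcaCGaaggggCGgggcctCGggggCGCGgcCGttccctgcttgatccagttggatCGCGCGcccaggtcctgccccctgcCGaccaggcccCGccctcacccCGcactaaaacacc
G0s2: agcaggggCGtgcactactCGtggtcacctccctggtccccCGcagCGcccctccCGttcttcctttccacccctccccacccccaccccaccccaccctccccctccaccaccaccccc
Aqp7: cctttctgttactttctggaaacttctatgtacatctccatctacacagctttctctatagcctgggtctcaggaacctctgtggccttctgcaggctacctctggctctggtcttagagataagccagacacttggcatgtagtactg

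All 7 genes matched an upstream window of 250 bases, 10 windows in all since Aqp7, Mgll and Lipe have 2 starts each. The GC box GGGCGG, searched on both strands, was in 6 of the 10 windows, 1 window each for Pnpla2, G0s2, Abhd5, Pnpla3, Lipe and Mgll, against 32.7% of 32851 windows over 27025 genes. These 6 windows were 58.4% to 74.8% GC, against a median of 52.4% over all windows. The nuclear receptor core site AGGTCA was in both Aqp7 windows and in the Abhd5 window, against 14.0% of all windows, while the direct repeat AGGTCANAGGTCA, which contains it, was in 0 of the 10 and in 0.0335% of all. The 2 Aqp7 windows overlap in part, so that the same site can count in both. The E-box CACGTG (6.02% of all windows) and the FOXO site GTAAACA (3.17%) were each in a window of Mgll and in a window of Lipe, and the CRE TGACGTCA (1.55%) and the CCAAT box (33.8%) were each in the Pnpla3 window. Aqp7 had few CG, with 0 and 2 in its windows against a median of 6 over all windows, 12 for Pnpla2 and 23 and 40 for Mgll. The 2 windows of Lipe held 18 and 1, so that a low number was not particular to Aqp7. The other genes lie at chr7:25379527-25398486 (Lipe, minus strand), chr6:88724412-88828360 (Mgll, plus), chr15:84167776-84189521 (Pnpla3, plus) and chr9:122351616-122381524 (Abhd5, plus). Lipe, Mgll and Pnpla3 overlap annotated noncoding genes (4732471J01Rik, Gm26588, Mir6392 and Gm20369). Some of their reads could belong to these, because the strand setting of the counting is not stated.

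Depth was between 9275711 and 15480388 reads per mouse, and no pair of mice within a group differed by as little as sampling noise. Adipocyte markers were abundant throughout, with a summed level of 36258 to 111252 CPM (reads of a gene per 1000000 reads of the mouse) over 12 genes such as Adipoq and Fabp4, none of them at 0 in any group. Their mean was lower and that of macrophage markers higher in HFD mice. By limma at an adjusted p below 0.05, 1 of the 12 adipocyte markers was lower and 1 higher at 8 weeks. At 20 weeks 9 were lower and 1 higher, and at 34 weeks 10 and 1, beside 15.1%, 18.7% and 15.7% of all genes lower. The mean log2 level of the adipocyte markers was 11.69 with CD and 11.32 with HFD at 8 weeks, 11.70 and 10.76 at 20 weeks, and 11.51 and 10.58 at 34 weeks. That of 11 macrophage markers was 5.39 and 6.83, 6.27 and 8.53, and 7.65 and 9.13. Mouse 5 of the CD group at 34 weeks (macrophage mean 9.49) and mouse 1 of the CD group at 20 weeks (7.81) stood apart from their groups in the same way. In such bulk samples fewer adipocytes and less RNA per adipocyte cannot be told apart. Scaling matters too. The median log2 difference between HFD and CD over all genes was 0.11, 0.14 and 0.07 at 8, 20 and 34 weeks and 0.01, -0.07 and -0.01 with TMM factors. The share of changed genes that were higher with HFD was 66.3%, 67.1% and 63.6% as deposited and 51.4%, 44.7% and 51.9% with TMM factors.

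The lipolysis genes spanned a wide range of expression. Pnpla2 ranked 26, Lipe 30 and Mgll 65 among all genes by mean CPM, and Lipe and Mgll held 32.2% and 20.6% of the CPM summed over the 7 genes, with Pnpla2 above both. Levels between genes are compared per kilobase of exon. On that scale Pnpla2 was the highest in every group, with a mean of 1266 CPM per kb in CD mice at 8 weeks and 499 in HFD mice at 34 weeks. Lipe lay between 275 and 469 and Mgll between 231 and 346 CPM per kb. Pnpla3 lay between 99.8 and 182, Abhd5 between 29.7 and 49.2, and Aqp7 between 22.9 and 55.2. G0s2 had no fixed place in this order. Its mean of 19.7 CPM per kb in CD mice at 20 weeks was below that of every other gene, and its mean of 256 in CD mice at 34 weeks was above those of Pnpla3, Abhd5 and Aqp7. Between the lowest and the highest of the 38 mice the level differed 35.1-fold for G0s2 and 7.51-fold for Pnpla3, but only 2.47-fold for Mgll.

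**Figure D1:**
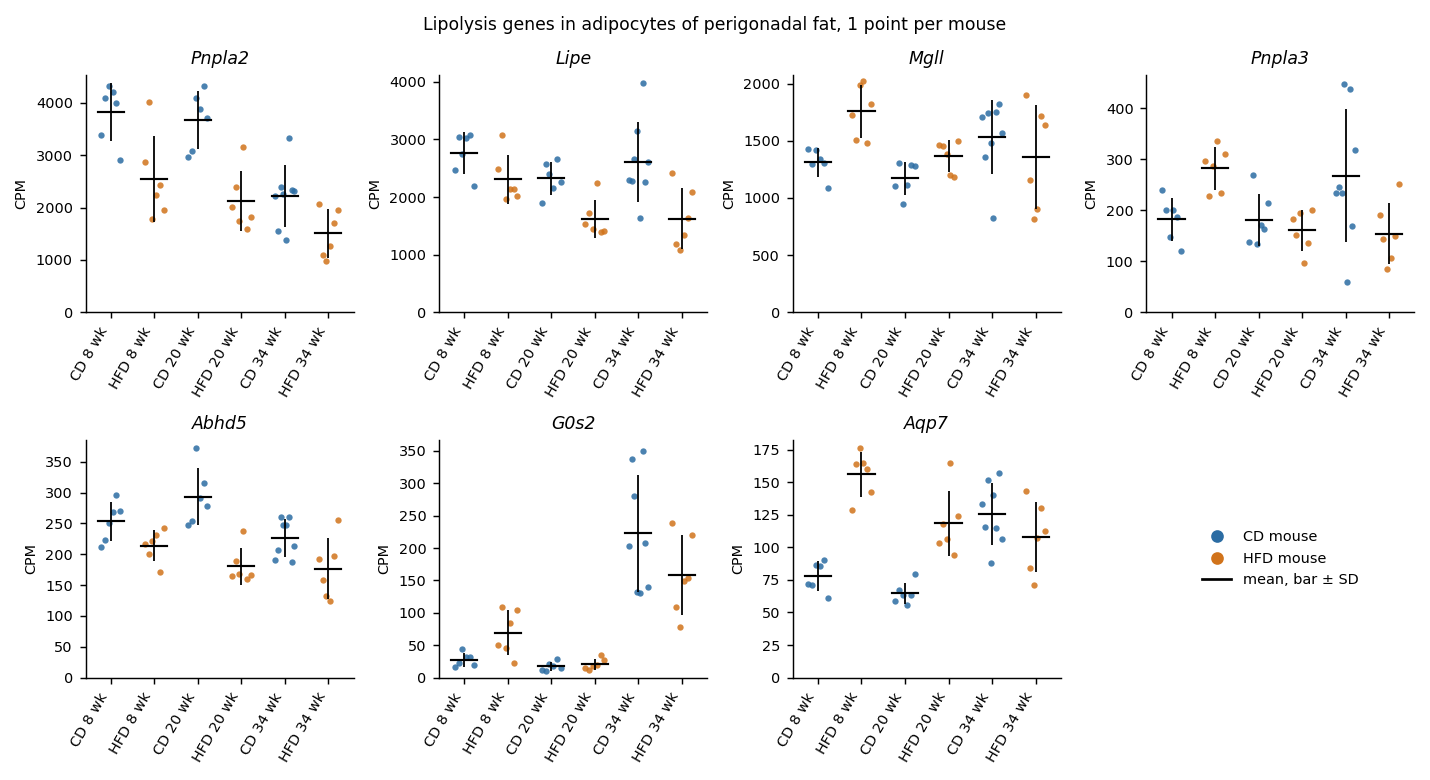
Level of each gene (CPM, linear axes from 0) in each of the 38 mice by diet and week, with a point for each mouse, a line for the group mean and a bar of ± 1 SD. G0s2 at 34 weeks lies between 77.9 and 350.2 CPM in both diets, and Aqp7 in HFD mice at 8 weeks (128 to 176 CPM) lies above every CD mouse of that time.

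To ask how HFD altered the pathway at each time, HFD and CD mice were compared with limma on log2(CPM + 1), with p-values adjusted by Benjamini-Hochberg over the 10343 genes. A gene is said to rise or fall where the adjusted p was below 0.05. At 8 weeks the pathway moved both ways, with Aqp7, G0s2 and Mgll higher and Pnpla2 lower in HFD mice. At 20 weeks Pnpla2, Lipe and Abhd5 were lower and Aqp7 was higher, and at 34 weeks Pnpla2, Lipe and Abhd5 were lower and no gene was higher. The falls at 20 and 34 weeks are relative to all mRNA of the fraction, and centred on the adipocyte markers of each mouse they took values of 0.13 to 0.54. That centring moves nearly all genes upward, with a median over all genes of 1.08 at 20 weeks and 1.00 at 34 weeks and 98.3% and 99.4% of called genes higher, so that these values are still below the median of all genes.

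These calls were 4 of 7 genes at 8 weeks, against 44.9% of all genes tested, of which 29.8% were higher and 15.1% lower. They were 4 of 7 at 20 weeks, against 57% of all genes (38.3% higher and 18.7% lower), and 3 of 7 at 34 weeks, against 43.2% (27.5% higher and 15.7% lower). Groups without overlap were found for 2 of 7 genes at 8 weeks, Mgll and Aqp7, both higher with HFD (15.7% of all genes). They were found for 2 at 20 weeks, Aqp7 higher (26.1%) and Abhd5 lower (11.1%), and for 0 at 34 weeks (1.47% higher and 0.986% lower). The share of genes called was therefore near that of all genes. The median log2 difference of the 7 genes was 0.42 at 8 weeks, -0.17 at 20 weeks and -0.49 at 34 weeks, beside 0.11, 0.14 and 0.07 for all genes. At 34 weeks 1 of the 7, Lipe, was called without mouse 3 of the HFD group, and 4 were called without the macrophage-rich mouse 5 of the CD group, the added gene being Pnpla3. Without mouse 1 of the CD group at 20 weeks the number at that time remained 4.

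**Figure D2:**
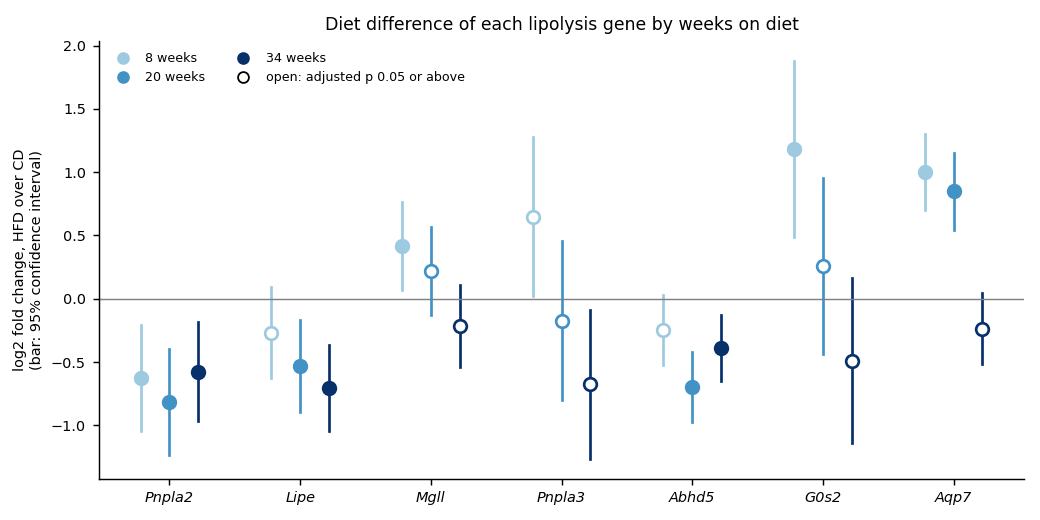
Difference between HFD and CD mice (log2, limma on CPM as deposited) for each gene at 8, 20 and 34 weeks, with 95% confidence intervals as bars and filled points for an adjusted p below 0.05. Pnpla2 lies at -0.63, -0.82 and -0.58, and Aqp7 lies at 1.00, 0.85 and -0.24. Centred on adipocyte markers, Pnpla2, Lipe and Abhd5 at 20 and 34 weeks take values of 0.13 to 0.54, below the median of all genes under that centring (1.08 and 1.00).

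Pnpla2, the gene of ATGL, was lower with HFD at every time. At 8 weeks the lowest, median and highest CPM were 2912, 4045 and 4324 in CD mice and 1776, 2341 and 4023 in HFD mice. At 20 weeks they were 2972, 3800.2 and 4322 in CD mice and 1589, 1922 and 3164 in HFD mice, and at 34 weeks 1381, 2288 and 3325 in CD mice and 972, 1478 and 2063 in HFD mice. The medians of HFD mice were below every CD mouse at 8 and 20 weeks, although 1 or more HFD mice reached the CD range each time and the groups overlapped. Pnpla2 fell by 35.2% at 8 weeks (log2 difference -0.63 ± 0.21 SE, limma adjusted p = 0.0143). Pnpla2 fell by 43.2% at 20 weeks (-0.82 ± 0.21, adjusted p = 0.00112) and fell by 32.9% at 34 weeks (-0.58 ± 0.19, adjusted p = 0.0162). The difference did not change measurably with time (34 minus 8 weeks 0.05, 95% interval -0.52 to 0.62, adjusted p = 0.916). With each mouse centred on its adipocyte markers the values were -0.26, 0.13 and 0.35, beside 0.47, 1.08 and 1.00 for the median of all genes. At 34 weeks the call was lost without mouse 2 (-0.49) or mouse 3 (-0.46) of the HFD group, and the difference was -0.67 without mouse 5 of the CD group.

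Pnpla2 also fell with time. Its mean in CD mice was 3822 ± 551 CPM (SD, n = 6) at 8 weeks, 3676 ± 546 (n = 6) at 20 weeks and 2224 ± 588 (n = 8) at 34 weeks. By 34 weeks it fell by 43.1% from the level at 8 weeks (-0.81 ± 0.19, adjusted p = 0.000491) and fell by 40.8% from that at 20 weeks (-0.76 ± 0.19, adjusted p = 0.0011). In HFD mice the mean was 2549.6 ± 816 CPM at 8 weeks, 2124.5 ± 580 at 20 weeks and 1506 ± 462 at 34 weeks (n = 6 each). The difference between 34 and 8 weeks was -0.76 ± 0.21 (adjusted p = 0.00251). Centred on the adipocyte markers, whose mean was 11.32 at 8 weeks and 10.58 at 34 weeks of HFD, it was -0.024, beside 0.80 for the median of all genes. Ordered by level, the groups ran from CD at 8 and 20 weeks through HFD at 8 weeks, CD at 34 weeks and HFD at 20 weeks to HFD at 34 weeks. Among neighbours in that order, CD at 20 weeks and HFD at 8 weeks differed in mean (0.57, limma adjusted p = 0.0238), although their ranges overlapped. Of all genes 15.4% were lower in HFD mice at 8 weeks than in CD mice at 20 weeks. The other neighbours were not told apart. The macrophage markers given above ran the opposite way. With their level as a covariate Pnpla2 at 34 weeks of CD differed from that at 8 weeks by -0.13 (adjusted p = 0.596) and from that at 20 weeks by -0.34 (adjusted p = 0.0813).

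Lipe, the gene of hormone-sensitive lipase, fell with HFD at the later times. At 8 weeks CD mice lay at 2189, 2892 and 3069 CPM (lowest, median, highest) and HFD mice at 1973, 2137 and 3084 (-0.27 ± 0.18, adjusted p = 0.224). The groups overlapped, with the median of HFD mice below every CD mouse. At 20 weeks CD mice lay at 1893, 2330.4 and 2669 CPM and HFD mice at 1386, 1482 and 2239.9, and at 34 weeks at 1642, 2452 and 3982 and at 1074, 1482 and 2410.2. The median of HFD mice was below every CD mouse at both of these times too, and the groups again overlapped. Lipe fell by 30.9% at 20 weeks (-0.53 ± 0.18, adjusted p = 0.0115; 0.41 when centred on adipocyte markers) and fell by 38.6% at 34 weeks (-0.70 ± 0.17, adjusted p = 0.00132; 0.22 when centred). Without mouse 5 of the CD group the difference of Lipe at 34 weeks was -0.79.

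Unlike Pnpla2, Lipe showed no call between CD mice of different times, with group means of 2760.1 ± 363 CPM at 8 weeks, 2325 ± 284 at 20 weeks and 2607 ± 701 at 34 weeks. HFD mice went from 2306 ± 423 CPM at 8 weeks to 1621 ± 328 at 20 weeks (-0.51 ± 0.18, adjusted p = 0.025) and 1621 ± 529 at 34 weeks (-0.55 ± 0.18 against 8 weeks, adjusted p = 0.01). The call between 20 and 8 weeks was lost without mouse 2 of the HFD group at 8 weeks (-0.42) and without mouse 5 (-0.47) or mouse 6 (-0.48) of the HFD group at 20 weeks.

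Mgll, whose product completes triglyceride hydrolysis, was the lipase that rose with HFD at 8 weeks. CD mice lay at 1084, 1321 and 1431 CPM and HFD mice at 1484, 1774 and 2019.6, so that every HFD mouse was above every CD mouse; 15.7% of all genes showed the same separation. The rise was 33.5% (0.42 ± 0.17, adjusted p = 0.0465), close to the threshold: it was 0.31 with TMM factors (adjusted p = 0.162), and the call was lost without any of 14 single mice. These were CD mice 2 to 6 and HFD mice 1, 3, 4 and 6 at 8 weeks, without which the difference was 0.36 to 0.44. The others were CD mice 4 and 6 and HFD mice 1 to 3 at 20 weeks, which enter only the shared estimate of spread. At 20 weeks CD mice lay at 943, 1195 and 1309.6 CPM and HFD mice at 1182, 1418 and 1499 (0.22 ± 0.17, adjusted p = 0.273), with all 6 HFD mice above the CD mean. At 34 weeks CD mice lay at 828, 1640.5 and 1823 CPM and HFD mice at 818, 1402 and 1899, a difference of -0.21 ± 0.16 (adjusted p = 0.284; 0.71 when centred on adipocyte markers). The lowest CD value at 34 weeks belonged to mouse 5, and without it the difference was -0.34 (adjusted p = 0.0509). Between 8 and 34 weeks of HFD Mgll fell from a mean of 1759 ± 230 to 1356 ± 456 CPM (-0.44 ± 0.17, adjusted p = 0.0319; 0.30 when centred). This call was lost without mouse 3, 4 or 6 at 8 weeks or mouse 2, 3 or 4 at 34 weeks (-0.31 to -0.42). Between 20 and 34 weeks of CD the difference of Mgll was 0.36 ± 0.16 (adjusted p = 0.0502), and it was 0.48 (adjusted p = 0.0043) without mouse 5. It also passed, at 0.36 to 0.39, without CD mouse 2 at 20 weeks, CD mouse 2 at 34 weeks or HFD mouse 1, 3, 4, 5 or 6 at 34 weeks.

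Pnpla3, the gene of adiponutrin, passed the threshold at none of the times. At 8 weeks CD mice lay at 119.9, 193 and 239 CPM and HFD mice at 228, 292 and 336, and all 6 HFD mice were above the CD mean (0.65 ± 0.31, adjusted p = 0.0861). At 20 weeks CD mice lay at 133, 167 and 269 CPM and HFD mice at 97.6, 168 and 201 (-0.17 ± 0.31, adjusted p = 0.656). At 34 weeks CD mice lay at 59.5, 241 and 447 CPM and HFD mice at 84.7, 146 and 252 (-0.68 ± 0.29, adjusted p = 0.0568; adjusted p = 0.0415 with TMM factors). The widest group was CD at 34 weeks, and its lowest value belonged to mouse 5, the mouse rich in macrophage markers. Without that mouse the difference at 34 weeks was -0.95 (adjusted p = 0.000893), that at 8 weeks was 0.65 (adjusted p = 0.0244), and CD mice at 34 weeks were above those at 8 weeks (0.66, adjusted p = 0.0119). Without CD mouse 7 or HFD mouse 1 or 6 the difference at 34 weeks also passed, at -0.74, -0.75 and -0.84. Within HFD mice Pnpla3 was lower at 20 weeks than at 8 weeks with no overlap (-0.84 ± 0.31, adjusted p = 0.0335; 9.63% of all genes were lower without overlap). It was also lower at 34 weeks than at 8 weeks (-0.94 ± 0.31, adjusted p = 0.0111). The call at 20 weeks was lost without mouse 1, 4 or 6 at 8 weeks or mouse 2, 4 or 5 at 20 weeks (-0.70 to -0.83).

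Abhd5, the ATGL coactivator, was lower with HFD at 20 and 34 weeks, as was Pnpla2, but was not called at 8 weeks. At 8 weeks CD mice lay at 212, 259 and 296 CPM and HFD mice at 171.5, 219 and 242 (-0.24 ± 0.14, adjusted p = 0.142). At 20 weeks CD mice lay at 248, 285 and 373 CPM and HFD mice at 160.3, 166.5 and 238, and every HFD mouse was below every CD mouse, as for 11.1% of all genes. Abhd5 fell by 38.2% at 20 weeks (-0.69 ± 0.14, adjusted p = 6.32e-05; 0.25 when centred on adipocyte markers). At 34 weeks CD mice lay at 188, 230.04 and 261 CPM and HFD mice at 124, 176 and 256, with overlap; Abhd5 fell by 23.6% (-0.39 ± 0.13, adjusted p = 0.0139; 0.54 when centred). That call was lost without mouse 3 (-0.32) or mouse 4 (-0.30) of the HFD group and was kept without mouse 5 of the CD group (-0.37). In CD mice Abhd5 fell by 22.4% between 20 and 34 weeks (-0.37 ± 0.13, adjusted p = 0.013), or by 0.29 on the log2 scale without mouse 3 of the CD group at 20 weeks (adjusted p = 0.0517). Between 8 and 34 weeks of HFD the difference of Abhd5 was -0.31 (adjusted p = 0.0569; 0.43 when centred). It passed without HFD mouse 5 at 8 weeks, mouse 4 at 20 weeks or mouse 1, 5 or 6 at 34 weeks (-0.31 to -0.42).

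G0s2, the ATGL inhibitor, was the most variable of the genes and rested on the fewest reads, 132 to 4137 per mouse. At 8 weeks CD mice lay at 15.6, 27.2 and 44.8 CPM and HFD mice at 22.4, 67.2 and 108.9, a rise of 2.27-fold with overlap (1.19 ± 0.34, adjusted p = 0.00588). At 20 weeks CD mice lay at 9.98, 16.2 and 28.3 CPM and HFD mice at 11.9, 18.2 and 35.1 (0.26 ± 0.34, adjusted p = 0.538). At 34 weeks CD mice lay at 131, 206 and 350.2 CPM and HFD mice at 77.9, 152 and 238 (-0.49 ± 0.32, adjusted p = 0.216). At 8 weeks 5 of 6 HFD mice were above the CD mean, and at 34 weeks the range of both diets lay above that of every mouse at 20 weeks.

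Time moved G0s2 further than diet did. In CD mice G0s2 rose 7.68-fold between 8 and 34 weeks (2.94 ± 0.32, adjusted p = 8.08e-09). It rose 12.1-fold between 20 and 34 weeks (3.60 ± 0.32, adjusted p = 8.01e-11). Neither pair of groups overlapped, against 14.6% and 12% of all genes higher without overlap. In HFD mice G0s2 fell by 66.6% between 8 and 20 weeks (-1.58 ± 0.34, adjusted p = 0.000795) and rose 7.21-fold between 20 and 34 weeks (2.85 ± 0.34, adjusted p = 1.46e-06) without overlap, against 7.63% of all genes. The rise in CD mice at 34 weeks was as large without mouse 5 (3.04 against 8 weeks and 3.69 against 20 weeks) and with the macrophage marker level as a covariate (3.20 and 3.76). Ordered by level, both groups at 34 weeks came first, and HFD at 8 weeks lay below HFD at 34 weeks (1.27, adjusted p = 0.00248; 31.7% of all genes rose between these) and above CD at 8 weeks (1.19). In these comparisons 64.7% of all genes changed between CD mice at 34 and 8 weeks and 62.5% between 34 and 20 weeks, and the age of the mice, the weeks on diet and the handling of each time point cannot be told apart.

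Aqp7, the glycerol channel of adipocytes, showed the clearest effect of diet among the 7 genes at 8 and 20 weeks and none that passed at 34 weeks. At 8 weeks CD mice lay at 60.9, 78.7 and 90.4 CPM and HFD mice at 128, 162 and 176. At 20 weeks CD mice lay at 55.8, 63.7 and 79.1 CPM and HFD mice at 94.4, 112 and 165. All HFD mice were above all CD mice at both times, as for 15.7% and 26.1% of all genes. Aqp7 rose 2.00-fold at 8 weeks (1.00 ± 0.15, adjusted p = 6.45e-06) and 1.80-fold at 20 weeks (0.85 ± 0.15, adjusted p = 1.4e-05). At 34 weeks CD mice lay at 87.9, 124 and 157 CPM and HFD mice at 70.7, 109.8 and 143, and the groups overlapped almost fully (-0.24 ± 0.14, adjusted p = 0.165; 0.69 when centred on adipocyte markers). In CD mice Aqp7 was higher at 34 weeks than at 8 weeks (1.60-fold, 0.68 ± 0.14, adjusted p = 8.7e-05) and than at 20 weeks without overlap (1.91-fold, 0.94 ± 0.14, adjusted p = 9.96e-07). In HFD mice Aqp7 was lower at 20 weeks (-0.41 ± 0.15, adjusted p = 0.0299) and at 34 weeks (-0.56 ± 0.15, adjusted p = 0.00212) than at 8 weeks, values of 0.16 and 0.18 when centred. The latter was -0.53 with the macrophage covariate (adjusted p = 0.0596). The call at 20 weeks was lost without mouse 2, 3 or 4 at 8 weeks or mouse 1, 3 or 5 at 20 weeks (-0.35 to -0.40).

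Ordered by mean level, the groups ran HFD 8, CD 34, HFD 20, HFD 34, CD 8 and CD 20 weeks for Aqp7. Among neighbours HFD at 34 weeks was above CD at 8 weeks (0.44, adjusted p = 0.00868; 43.6% of all genes were higher). For Lipe the order was CD 8, CD 34, CD 20, HFD 8, HFD 20 and HFD 34 weeks, and among neighbours HFD at 8 weeks was above HFD at 20 weeks (0.51, the call given above). For Abhd5 it was CD 20, CD 8, CD 34, HFD 8, HFD 20 and HFD 34 weeks, which put all CD groups first, as for Lipe. For Mgll it was HFD 8, CD 34, HFD 20, CD 8, HFD 34 and CD 20 weeks, and for Pnpla3 it was HFD 8, CD 34, CD 8, CD 20, HFD 20 and HFD 34 weeks. No neighbours in the orders of Abhd5, Mgll and Pnpla3 passed the threshold.

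Counted over time, CD mice at 20 and 8 weeks differed in 0 of the 7 genes by limma, by edgeR and by DESeq2, with 0 at an unadjusted p below 0.05 and 3.58% of all genes called. CD mice at 34 weeks differed from those at 8 weeks in 3 of 7 (64.7% of all genes) and from those at 20 weeks in 4 of 7 (62.5%). HFD mice at 20 weeks differed from those at 8 weeks in 4 of 7, all lower (36.5% of all genes, 15.3% lower). Those at 34 weeks differed from 8 weeks in 6 of 7, of which 5 were lower and G0s2 was higher (2.41-fold; 52.5% of all genes, 20.8% lower and 31.7% higher). Between 34 and 20 weeks of HFD 1 of 7, G0s2, was called (30.2% of all genes). The count between 20 and 8 weeks of HFD was 2 without mouse 2 or 4 at 8 weeks and 1 without mouse 5 at 20 weeks. That between 34 and 20 weeks was 2, with Pnpla2 at -0.51 to -0.62, without any of 6 mice. These were HFD mouse 2 at 8 weeks, HFD mouse 5 at 20 weeks, CD mice 5 and 6 at 34 weeks and HFD mice 1 and 6 at 34 weeks. These comparisons share groups with each other and with those of diet, and their values are not independent.

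Whether the effect of diet itself changed between times was tested as the difference of the HFD minus CD differences. Between 20 and 8 weeks 0 of the 7 genes passed by limma, edgeR or DESeq2, with 1 at an unadjusted p below 0.05 (4.49% of all genes called). Between 34 and 8 weeks 4 of 7 passed, all toward a lower effect at 34 weeks, against 28.8% of all genes (15.9% in that direction). These were Aqp7 (-1.24 ± 0.20, adjusted p = 6.41e-05), G0s2 (-1.67 ± 0.47, adjusted p = 0.0077), Pnpla3 (-1.32 ± 0.42, adjusted p = 0.0183) and Mgll (-0.63 ± 0.24, adjusted p = 0.0413). Between 34 and 20 weeks Aqp7 passed (-1.08 ± 0.20, adjusted p = 0.00106; 10.5% of all genes, 6.31% in that direction). The call of Mgll was lost without any of 15 single mice of the groups compared (-0.50 to -0.63). These were CD mice 2, 5 and 6 and HFD mice 1, 3, 4 and 6 at 8 weeks and CD mice 1, 3, 6, 7 and 8 and HFD mice 2, 3 and 4 at 34 weeks.

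Within each mouse, the balance of the genes was compared as a ratio of CPM, which does not depend on how libraries are scaled. At 8 and 20 weeks the ATGL inhibitor had few reads beside its target. Exon lengths, 0.871 kb for G0s2 and 3.02 kb for Pnpla2, are not allowed for in these shares. G0s2 CPM was 0.459%, 0.714% and 1.04% of Pnpla2 CPM in CD mice at 8 weeks (lowest, median, highest) and 0.917%, 2.64% and 5.35% in HFD mice. At 20 weeks it was 0.325%, 0.427% and 0.655% in CD mice and 0.497%, 0.867% and 2.21% in HFD mice, and at 34 weeks 5.83%, 9.30% and 21.7% in CD mice and 8.02%, 10.6% and 11.9% in HFD mice. HFD mice had the higher ratio at 8 and 20 weeks with some overlap, and at 34 weeks the HFD mice lay inside the CD range. The ratio was 3.51-fold higher with HFD at 8 weeks (log2 difference 1.81 ± 0.39, two-sided exact permutation p = 0.00433, adjusted over 12 ratio comparisons 0.0173) and 2.11-fold higher at 20 weeks (1.07 ± 0.35, exact p = 0.00866, adjusted 0.0173). At 34 weeks the difference was 0.09 ± 0.23 (exact p = 0.757, adjusted 0.757).

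The transcript levels of the lipases also differed relative to each other. Mgll as a share of Lipe CPM had a median of 46.9% in CD mice and 79.9% in HFD mice at 8 weeks, 51.3% and 90.7% at 20 weeks, and 60.1% and 78.8% at 34 weeks. The log2 ratio was higher with HFD each time, by 0.68 ± 0.18 (exact p = 0.00866, adjusted 0.0173), 0.75 ± 0.16 (exact p = 0.00649, adjusted 0.0173) and 0.49 ± 0.15 (exact p = 0.00799, adjusted 0.0173). Lipe relative to Pnpla2 was higher with HFD at 8 weeks without overlap (0.36 ± 0.087, exact p = 0.00216, the smallest that 6 against 6 mice can give, adjusted 0.0173). It was also higher at 20 weeks (0.28 ± 0.097, exact p = 0.0195, adjusted 0.0334), and not at 34 weeks (-0.13 ± 0.080, exact p = 0.173, adjusted 0.221). The call at 20 weeks was lost without any of 9 of its 12 mice, which were all except CD mouse 2 and HFD mice 2 and 4 (0.24 to 0.36). Abhd5 relative to Pnpla2, the coactivator against its enzyme, differed by 0.38 ± 0.24, 0.12 ± 0.085 and 0.19 ± 0.18, with adjusted exact permutation p of 0.205, 0.221 and 0.378. In all, 7 of the 12 ratio comparisons passed. A ratio within a mouse does not allow for the mix of cells in the fraction. Over the 38 mice Pearson's r with the mean log2 level of the adipocyte markers was 0.924 for Lipe, 0.832 for Pnpla2 and 0.207 for Mgll. The part of cell composition in these ratios was not tested.

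**Figure D3:**
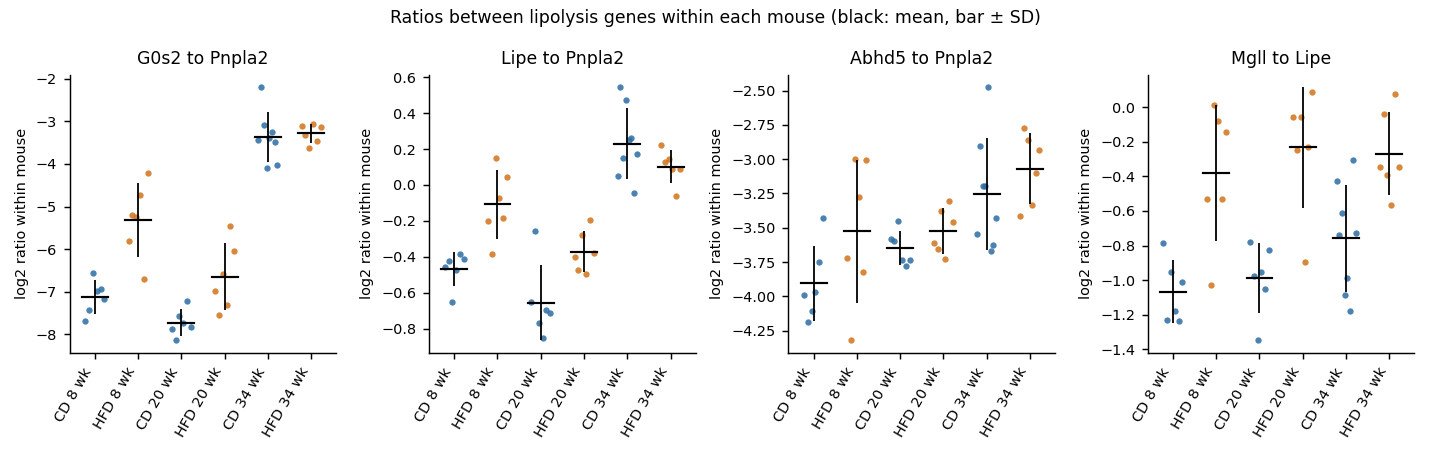
Within-mouse log2 ratio of CPM for 4 pairs of genes in each mouse by diet and week, with a point for each mouse, a line for the group mean and a bar of ± 1 SD. Mgll to Lipe is higher with HFD at all times (by 0.68, 0.75 and 0.49), and G0s2 to Pnpla2 is higher with HFD at 8 and 20 weeks and lies at 5.83% to 21.7% in all mice at 34 weeks.

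The level of several genes followed the adipocyte and macrophage markers of the same mouse. Over the 38 mice Pearson's r between Lipe and the mean log2 level of the adipocyte markers was 0.924, and it was 0.915 for deviations from the group means. For Pnpla2 these were 0.832 and 0.785, for Abhd5 0.793 and 0.536, for Aqp7 -0.267 and 0.117, and for G0s2 -0.081 and 0.405. With the macrophage markers r was -0.871 for Pnpla2 and -0.766 for Lipe over all mice, and -0.681 and -0.668 within groups. With the progenitor and fibroblast markers r was -0.791 for Pnpla2 and -0.803 for Lipe over all mice, and -0.787 and -0.740 within groups. The negative values were therefore not particular to macrophages. The values in a mouse come from the same library, in which a larger share of reads for some genes leaves a smaller one for the rest. Among the genes themselves, Pnpla2 and Lipe went together most closely within groups (r = 0.895 for deviations from the group means), followed by Pnpla3 and Mgll (0.729).

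**Figure D4:**
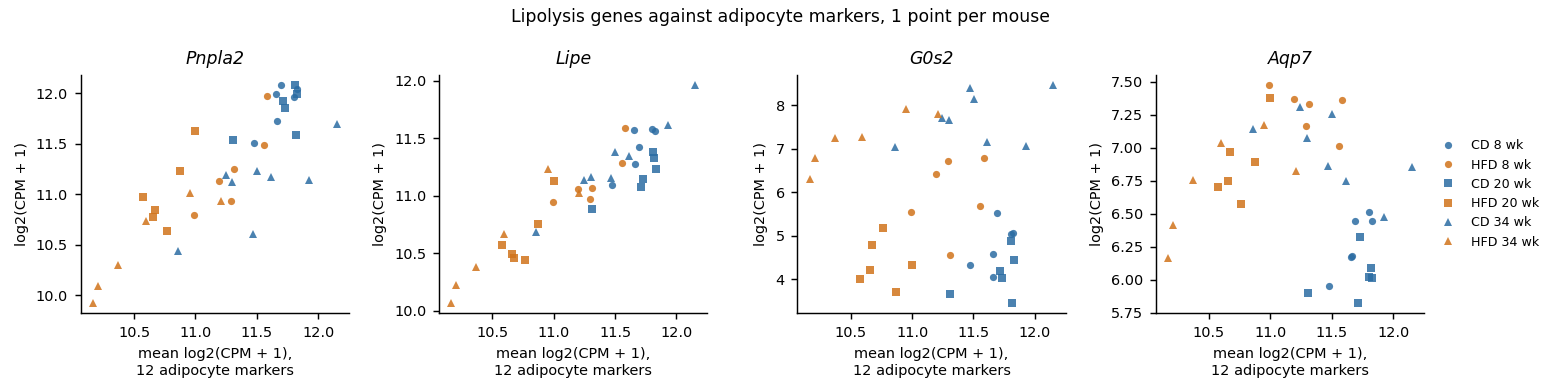
Level of Pnpla2, Lipe, G0s2 and Aqp7 (log2(CPM + 1)) against the mean log2 level of 12 adipocyte markers, with a point for each of the 38 mice coloured by diet and shaped by week. Lipe follows the markers (r = 0.924), Pnpla2 less closely (0.832), while G0s2 (-0.081) and Aqp7 (-0.267) do not run along them.

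Values adjusted for the macrophage or adipocyte markers differed by gene. With the macrophage marker level as a covariate, the difference between HFD and CD mice was -0.19, -0.13 and -0.13 for Pnpla2 at 8, 20 and 34 weeks and 0.10, 0.043 and -0.33 for Lipe, none of them called. Abhd5 remained lower at 20 weeks with the covariate (-0.52, adjusted p = 0.0297). Aqp7 kept its size, with 1.02 at 8 weeks (adjusted p = 4.71e-05) and 0.87 at 20 weeks (adjusted p = 0.00177). Mgll was 0.63 at 8 weeks (adjusted p = 0.00794) and 0.55 at 20 weeks (adjusted p = 0.0533), and Pnpla3 was 1.16 at 8 weeks (adjusted p = 0.00349). Centred on the adipocyte markers, Aqp7 took values of 1.37, 1.79 and 0.69, Mgll 0.78, 1.17 and 0.71, and Pnpla2 -0.26, 0.13 and 0.35. Since the median over all genes was 0.47, 1.08 and 1.00 under this centring, Aqp7 and Mgll were above that median at 8 and 20 weeks and below it at 34 weeks, and Pnpla2 was below it each time. The part of macrophages in the falls of Pnpla2 and Lipe was not tested beyond these values, and macrophage content and diet moved together in every comparison. Progenitor and fibroblast markers were not used as a covariate, and the part of those cells was not tested.

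**Figure D5:**
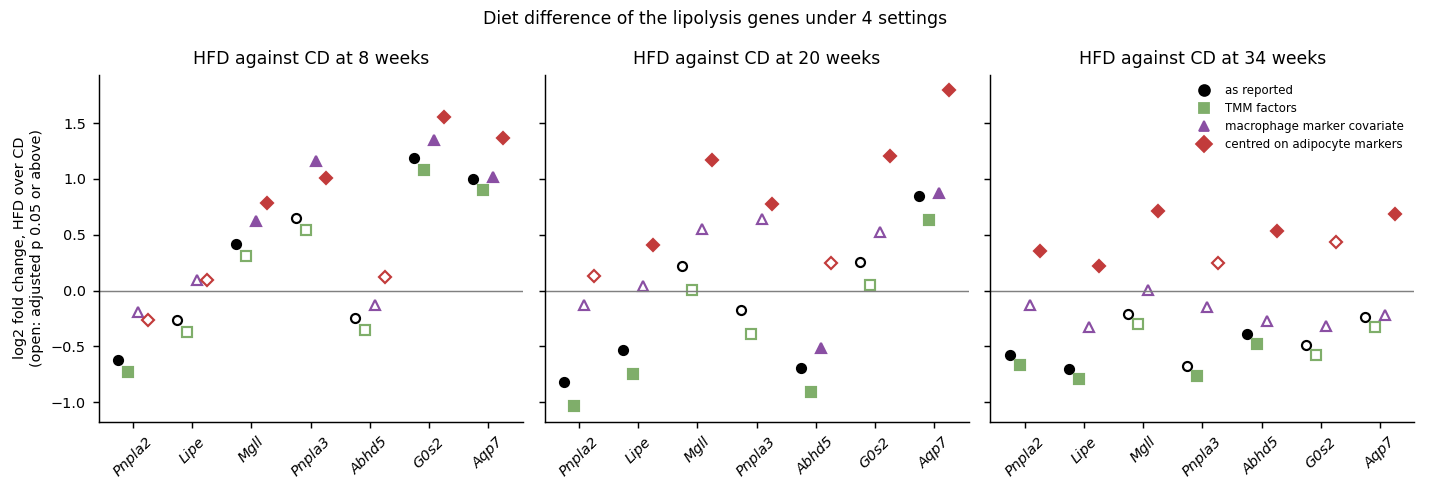
Difference between HFD and CD mice (log2) for each gene at 8, 20 and 34 weeks in 4 settings: as deposited, with TMM factors, with the macrophage marker covariate and centred on the adipocyte markers. Aqp7 at 8 and 20 weeks is positive in all 4, whereas Pnpla2 at 34 weeks is -0.58 as deposited and 0.35 when centred, and Lipe at 20 weeks is -0.53 and 0.41. The median of all genes when centred is 1.08 at 20 weeks and 1.00 at 34 weeks.

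Other genes of the pathway were counted in 5 lists. Of all genes tested, against which they are to be read, 29.8% were higher and 15.1% lower with HFD at 8 weeks, 38.3% and 18.7% at 20 weeks, and 27.5% and 15.7% at 34 weeks, with medians of 0.11, 0.14 and 0.07. Of 12 ATGL partners and droplet gatekeepers, 3 were higher and 1 lower with HFD at 8 weeks, 4 and 4 at 20 weeks, and 3 and 4 at 34 weeks (median log2 difference -0.11, -0.05 and -0.07). Serpinf1, the gene of the ATGL ligand PEDF, was the highest of them at 8 weeks (3.30 ± 0.36, adjusted p = 8.24e-08) and 20 weeks (3.29 ± 0.36, adjusted p = 2.26e-08). Hilpda, the gene of another ATGL inhibitor, was the lowest at 8 weeks (-1.19 ± 0.34, adjusted p = 0.00537). Cidec, which enlarges lipid droplets, was the lowest at 20 weeks (-0.85 ± 0.19, adjusted p = 0.000319; 0.09 when centred on adipocyte markers, of which it is one). Bscl2, the gene of seipin, was the lowest at 34 weeks (-0.66 ± 0.16, adjusted p = 0.00156; 0.26 when centred). Cidea, a relative of Cidec, was the highest at that time (0.75 ± 0.28, adjusted p = 0.0297; 0.67 with TMM factors, adjusted p = 0.0622). With the macrophage covariate Cidec (-0.28, adjusted p = 0.332) and Bscl2 (-0.36, adjusted p = 0.149) were no longer called.

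Of 14 other lipid hydrolases tested, 4 rose and 4 fell at 8 weeks, 7 and 6 at 20 weeks, and 4 and 2 at 34 weeks (median -0.02, 0.18 and 0.14). These were 8, 13 and 6 genes, beside 44.9%, 57% and 43.2% of all genes called. Ces1f, a carboxylesterase of adipocytes, was the lowest at 8 weeks (-1.70 ± 0.34, adjusted p = 0.000224) and 20 weeks (-1.51 ± 0.34, adjusted p = 0.000351). Nceh1, a cholesteryl ester hydrolase of macrophages, was the highest at both (2.31 ± 0.56, adjusted p = 0.00148, and 3.98 ± 0.56, adjusted p = 6.94e-07). At 34 weeks the highest was Lipa, the lysosomal acid lipase (2.12 ± 0.38, adjusted p = 8.9e-05), and the lowest was Ddhd1 (-0.38 ± 0.15, adjusted p = 0.0331; 0.54 when centred). With the macrophage covariate Nceh1 was 0.63 at 8 weeks and 1.33 at 20 weeks and Lipa was 1.02 at 34 weeks, all still called, and Ces1f at 20 weeks was -0.65 and no longer called (adjusted p = 0.231).

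The hormonal arm of lipolysis showed a large fall of the adipocyte adrenergic receptor. Of 26 genes tested, 7 rose and 5 fell at 8 weeks, 7 and 6 at 20 weeks, and 6 and 9 at 34 weeks (median 0.12, 0.05 and -0.07). Of all genes 29.8%, 38.3% and 27.5% were higher and 15.1%, 18.7% and 15.7% lower at these times. Adrb3, the main catecholamine receptor of mouse adipocytes, was the lowest at 20 weeks (-1.68 ± 0.31, adjusted p = 3.25e-05) and at 34 weeks (-2.77 ± 0.29, adjusted p = 7.91e-08), where its mean was 542 CPM in CD mice and 71.8 CPM in HFD mice. Npr3, the clearance receptor for natriuretic peptides, was the highest at 8 weeks (1.59 ± 0.33, adjusted p = 0.000322) and 20 weeks (2.20 ± 0.33, adjusted p = 1.61e-06). Irs2, an adaptor of the insulin receptor, was the lowest at 8 weeks (-1.35 ± 0.31, adjusted p = 0.000943), and Adcy3, an adenylyl cyclase, was the highest at 34 weeks (1.37 ± 0.22, adjusted p = 4.09e-05). With the macrophage covariate Adrb3 was -0.72 at 20 weeks, no longer called (adjusted p = 0.107), and -2.14 at 34 weeks (adjusted p = 4.80e-06).

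Few other genes of glycerol handling were abundant enough to be tested. Of 4, 1 rose and 1 fell at 8 weeks, 2 fell at 20 weeks and 3 fell at 34 weeks (median -0.22, -0.79 and -0.88), beside 15.1%, 18.7% and 15.7% of all genes lower. Gpd2, the mitochondrial glycerol phosphate dehydrogenase, was the lowest at 8 weeks (-0.94 ± 0.25, adjusted p = 0.00267) and also fell at 20 weeks (-1.352 ± 0.25, adjusted p = 2.32e-05). Gpd1, its cytosolic partner, rose at 8 weeks (0.52 ± 0.19, adjusted p = 0.0289; adjusted p = 0.106 with TMM factors). Pck1, the key enzyme of glyceroneogenesis, which re-esterifies released fatty acids, was the lowest at 20 weeks (-1.353 ± 0.37, adjusted p = 0.0023) and 34 weeks (-1.45 ± 0.35, adjusted p = 0.00133). Aqp11, another glycerol-permeable aquaporin of adipocytes, fell at 34 weeks (-0.81 ± 0.14, adjusted p = 8.18e-05; 0.12 when centred on adipocyte markers). With the macrophage covariate Pck1 was no longer called at 20 weeks (-0.47, adjusted p = 0.457) or 34 weeks (-0.87, adjusted p = 0.115). Nor was Gpd2 at 8 weeks (-0.44, adjusted p = 0.111) or 20 weeks (-0.55, adjusted p = 0.102), whereas Aqp11 was called at 34 weeks (-0.71, adjusted p = 0.00588).

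Of 12 transcription factors of adipocytes, 5 fell at 8 weeks and 5 at 20 weeks with none higher, and at 34 weeks 6 fell and 1 rose (median -0.28, -0.23 and -0.49). Of all genes 15.1%, 18.7% and 15.7% were lower and 29.8%, 38.3% and 27.5% higher. Mlxipl, the gene of the carbohydrate sensor ChREBP, was the lowest each time (-1.09, -1.13 and -1.21, with adjusted p of 3.78e-05, 6.76e-06 and 1.06e-05). Rxra, the partner of PPARγ, was the least lowered of those called at 8 weeks (-0.40 ± 0.10, adjusted p = 0.00246), and Ppara was so at 20 weeks (-0.52 ± 0.22, adjusted p = 0.0453; 0.42 when centred on adipocyte markers). Sp1, a factor that binds GC boxes, rose at 34 weeks (0.25 ± 0.10, adjusted p = 0.0496; 0.16 with TMM factors, adjusted p = 0.217). Mlxipl was called each time with the macrophage covariate (-0.92, -0.85 and -1.03), and Rxra (-0.21, adjusted p = 0.0858), Ppara (-0.082, adjusted p = 0.861) and Sp1 (0.20, adjusted p = 0.325) were not.

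The genes whose pattern over the 38 mice was most like that of each lipolysis gene were named by Pearson's r of log2(CPM + 1), as a description. They were Mettl7a1 (0.968), Lgals12 (0.953) and Aldh6a1 (0.947) for Pnpla2, Epm2a (0.931), Akap7 (0.929) and Lonp2 (0.927) for Lipe, and Sucnr1 (0.902), Smpd1 (0.895) and Copg1 (0.857) for Mgll. For Pnpla3 they were Reep1 (0.874), Lrpap1 (0.871) and Dgat2 (0.864), and for Abhd5 they were Dgat1 (0.905), Mgst1 (0.890) and Nnmt (0.876). Dgat1 and Dgat2 encode the enzymes of the last step of triglyceride synthesis. For G0s2 they were Homez (0.904), Zfpl1 (0.899) and Smim20 (0.897), and for Aqp7 they were Fkbp14 (0.840), Armcx1 (0.835) and Cd59a (0.835), lower values than for the other genes.

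For deviations from the group means, which leave out the differences between diets and times, other genes came first. They were Clpb (0.943), Mettl7a1 (0.913) and Acadsb (0.907) for Pnpla2, Lonp2 (0.931), Trap1 (0.917) and Aldh5a1 (0.912) for Lipe, Sucnr1 (0.898), Smpd1 (0.880) and G6pdx (0.858) for Mgll, and Lrrc39 (0.897), Syt12 (0.895) and Pmvk (0.879) for Pnpla3. They were Prdx3 (0.815), Dgat1 (0.790) and Pex13 (0.788) for Abhd5 and Irs3 (0.749), Rasd1 (0.747) and Homez (0.704) for G0s2. For Aqp7 they were Slc7a10 (0.782), Acaa2 (0.762) and Acadm (0.718), of which Acaa2 and Acadm encode enzymes of mitochondrial fatty acid oxidation. Sucnr1 and Smpd1 for Mgll, Lonp2 for Lipe, Mettl7a1 for Pnpla2, Dgat1 for Abhd5 and Homez for G0s2 were among the first 3 by both measures.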

How the data were processed

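The methods of the study state that polyadenylated RNA was made into stranded libraries, sequenced on a NextSeq 500, aligned to mm10 with STAR (2.5.2b in the submitters' processing notes) and counted with featureCounts over GENCODE exons, that genes lacking an Entrez number were left out and that counts were normalized with edgeR. The deposited table holds CPM for 29132 genes in 38 mice, 1 column per mouse, whereas the labels list 114 samples, 3 technical replicates per mouse; 0 columns were left unmapped. Each column of CPM sums to 1000000, so no TMM factor remains in the values the authors deposited. All values above 0 (100%) were whole multiples of 1 read within 0.1 reads, and these recovered reads gave the depth and the count tests.

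Genes with a mean log2(CPM + 1) above 2.0 (10343) were tested with limma 3.58.1 (R 4.3.3; all 6 groups in 1 fit, 32 residual degrees of freedom, mean-variance trend, Benjamini-Hochberg over all genes tested). With a pseudocount of 1, fold changes of low genes are understated. Replicates are mice, and the counting error of 1 read was worth 0.0646 to 0.108 CPM. Ratios within a mouse were compared with the exact permutation test of the difference of means (SciPy 1.17.1), two-sided. Alternatives were other pseudocounts, no filter, TMM and median-of-ratios factors, edgeR 4.0.16 (quasi-likelihood), DESeq2 1.42.0 and limma-voom on the recovered reads, array weights, no trend, only the groups compared, a block for the mouse number, marker adjustments and each mouse left out. The lipolysis genes, the pathway lists and the marker lists (adipocyte, macrophage, lipid-associated macrophage, T cell, B cell, endothelial, progenitor and fibroblast, mural, mesothelial, epididymal epithelium, erythroid) were chosen with earlier results of these data known. Genes outside the 7 were named by rule: in each pathway list the lowest and the highest called difference at each time, and for each of the 7 the 3 most correlated genes with a common name, over all mice and within groups. Hcar1, Hcar2, Gk and Adgre1 were not analysed here. Exon lengths are unions over GENCODE M21 and positions are from RefSeq on GRCm38.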

Additional observations from a re-analysis of the deposited data

Results flagged for a closer look

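Among 66 groups of values (each gene or ratio in each group of mice), 5 held a mouse far from the others of its group by Dixon's criterion, which chance does for about 1 in 20 groups. Mgll was 828 CPM in mouse 5 of the CD group at 34 weeks, where the next lowest was 1360.0 and the highest 1823; this mouse also had the highest macrophage marker level of its group, whose part in the low value was not tested. Abhd5 was 238 CPM in mouse 4 of the HFD group at 20 weeks, where the next highest was 189. In the same mouse the log2 ratio of Mgll to Lipe was -0.90, against -0.25 in the next lowest. The log2 ratio of Lipe to Pnpla2 was -0.65 in mouse 3 of the CD group at 8 weeks (next -0.48) and -0.26 in mouse 2 of the CD group at 20 weeks (next -0.65).

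The effect of diet differed between times, by a test of the difference itself, for Pnpla3 (-1.32 on the log2 scale, 34 minus 8 weeks), Mgll (-0.63), G0s2 (-1.67) and Aqp7 (-1.24, and -1.08 for 34 minus 20 weeks). For Aqp7 the levels behind it were 77.7 ± 11.5 and 156 ± 17.4 CPM (SD) with CD and HFD at 8 weeks, 64.7 ± 8.16 and 118 ± 25.2 at 20 weeks, and 126 ± 23.8 and 108 ± 27.2 at 34 weeks, so that the CD mice at 34 weeks lay nearer to the HFD mice of the earlier times than to the other CD mice.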

How the results depend on the processing

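Over 108 results, 4949 of 5180 values under other settings were counted as the same. For a gene or ratio this meant the same side of the threshold, and for a count of genes called a similar number. These 4949 include 70 that changed sign where neither value was called. Of the other values, 109 lost the call, 76 gained it, 27 moved and 19 changed direction where either value was called. The falls of Pnpla2, Lipe and Abhd5 with HFD depended on marker adjustment, and the number of mice limits calls near the threshold. Changes of direction came with 2 adjustments, and the cause was not tested. With the macrophage covariate, Lipe was 0.043 for diet at 20 weeks, 0.46 for 34 against 8 weeks of CD and 0.034 for 34 against 8 weeks of HFD. Centred on adipocyte markers, where the median of all genes was 1.08 and 1.00 for diet at 20 and 34 weeks, diet at 20 weeks gave Pnpla2 0.13, Pnpla3 0.77, Lipe 0.41 and Abhd5 0.25; diet at 34 weeks gave Pnpla2 0.35, Lipe 0.22, Mgll 0.71, Abhd5 0.54 and Aqp7 0.69; 20 against 8 weeks of HFD gave Pnpla2 0.32, Lipe 0.054 and Aqp7 0.16; and 34 against 8 weeks of HFD gave Lipe 0.19, Mgll 0.30, Abhd5 0.43 and Aqp7 0.18.

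The number of the 7 genes called moved as follows, and the share of all genes called moved too: for diet at 20 weeks it was 57% as reported, 22.8% with the covariate and 90.6% when centred, and for diet at 34 weeks 43.2% as reported, 43.6% with median-of-ratios factors, 23.8% with only the groups compared, 8.73% with the covariate and 92.9% when centred. For diet at 20 weeks the number of the 7 was 2 with the covariate; for diet at 34 weeks it was 5 with median-of-ratios factors, 1 with only the groups compared, 0 with the covariate and 5 when centred. For 34 against 8 weeks of CD it was 5 with array weights and 5 with the covariate; for 20 against 8 weeks of HFD it was 2 without the filter, 1 with the covariate and 2 when centred (36.5% of all genes as reported, 5.58% with the covariate, 62.2% when centred); for 34 against 8 weeks of HFD it was 1 with the covariate and 2 when centred (52.5%, 15.8% and 75.8% of all genes); for 34 against 20 weeks of HFD it was 2 by DESeq2. The difference of diet effects was called for 2 genes (only the groups compared) or 3 (array weights) for 20 minus 8 weeks, 2 when centred for 34 minus 8 weeks, and 2 with array weights for 34 minus 20 weeks. With single mice left out the number was 1 to 4 for diet at 34 weeks, 1 to 4 for 20 against 8 weeks of HFD and 1 to 2 for 34 against 20 weeks of HFD, and the ratio of Lipe to Pnpla2 at 20 weeks was 0.24 to 0.36. Mouse numbers did not pair the samples: over 18 pairs the correlation of deviations was -0.51 to 0.53, over 0.1 in 8, and in 3 a mouse went best with its own number. The block for the mouse number lost the calls of Mgll for diet at 8 weeks (0.42, adjusted p = 0.056), Pnpla2 for diet at 34 weeks (-0.54, adjusted p = 0.052) and Mgll for 34 minus 8 weeks (-0.57, adjusted p = 0.081), and no other call.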

Other observations

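Beside the adipocyte and macrophage markers, other cell types were followed by their own lists. The mean log2 level with CD and HFD was 2.80 and 5.76 at 8 weeks, 3.56 and 8.89 at 20 weeks, and 6.43 and 9.13 at 34 weeks for 7 markers of lipid-associated macrophages such as Trem2, and in HFD mice at 20 and 34 weeks this came within 2 log2 units of the adipocyte markers (10.76 and 10.58). For endothelial markers it lay between 3.16 and 4.68 in the groups, for progenitors and fibroblasts between 3.54 and 5.99, for mural cells between 3.89 and 5.30, for mesothelium between 1.55 and 2.65, and for erythroid cells between 1.11 and 2.01. T cell, B cell and epididymal epithelium markers had group means at or below 0.52. Single mice reached 1.27 for epididymal epithelium (mouse 4 of the HFD group at 34 weeks) and 0.94 for B cells (mouse 5 of the CD group at 34 weeks). For T cells the highest was 0.62 (mouse 4 of the HFD group at 8 weeks).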
